A study of Mus musculus with 16 samples.

Results

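Suprabasal keratinocytes of newborn mouse epidermis were compared between Dlx3 knockout (KO) and Dlx3 wild-type (WT) animals. The comparison takes 4 of the study's 16 RNA-seq libraries, 2 from KO and 2 from WT suprabasal cells, chosen by their labelled genotype and cell type. All came from the skin epidermis of neonates (p0 to p2) of mixed CD-1 and C57BL/6 strain, whose basal and suprabasal cells had been parted on a Percoll gradient, and total RNA was sequenced. A further 4 libraries hold the basal cells of the KO and WT animals, 2 for each genotype, and 8 hold basal and suprabasal cells of Fvb/N neonates, 4 of each. The labels name neither the promoter that drove the deletion nor the stretch of Dlx3 that was removed, and do not say whether a library pooled several animals.

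Dlx3 is a homeobox transcription factor of the distal-less family. In mouse skin it is known for its part in late keratinocyte differentiation and in the formation of the hair follicle, above all of the inner root sheath that moulds the growing hair. Suprabasal keratinocytes have left the basement membrane, make the keratins Krt1 and Krt10, and then assemble the cornified envelope, a crosslinked protein shell coated with lipid. Many envelope proteins are encoded side by side in the epidermal differentiation complex, which lies on chromosome 3 in the mouse.

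Each value is an RPKM, the reads of a gene per kilobase of its length and scaled to the mapped reads of its library. The estimated depth was 40900000 and 34000000 reads for the KO suprabasal libraries and 39100000 and 34800000 for the WT suprabasal libraries. Libraries of a group lay close together. For genes with a mean of at least 5 RPKM the median difference between the pair was 2.9% in KO and 2.5% in WT. Deviations were also set against read counting alone, at the estimated depth, for 3486 single-transcript genes in KO and 3500 in WT. The median squared deviation was 1.46 and 1.31 times that of counting, and the mean 1.85 and 1.51 times. The p-values below measure the spread between these libraries, which may be technical.

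Dlx3 itself, at chr11:95120117-95125296 in GRCm38.p6 (mm10), was read first. Its RPKM was 2.64 and 2.24 in the KO suprabasal libraries and 7.87 and 6.92 in the WT suprabasal libraries. The groups did not overlap, as at 70.1% of all genes tested, and reads remained in both KO libraries. Dlx3 fell by 1.29 on the log2 scale of RPKM plus 1 (limma, SE 0.07, adjusted p = 6.01e-06). 2 of the remaining family members could be tested beside it. Dlx4 was at 0.777 and 0.653 RPKM in KO and at 0.979 and 0.918 in WT (log2 difference -0.19, adjusted p = 0.0932), and Dlx5 was at 4.52 and 3.97 in KO and at 3.85 and 3.26 in WT (0.20, adjusted p = 0.0781). Among the 5 protein-coding genes on each side of Dlx3, 8 were tested and 0 were called by limma, against 37.3% of all genes tested.

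The 3 genes that mark the comparison beside Dlx3 went in different directions. Crct1, a small cysteine-rich protein gene of the epidermal differentiation complex, was at 47.6 and 47.4 RPKM in KO and at 15.1 and 15.3 in WT. Krt77, a keratin of the suprabasal layers, was at 163.8 and 162.2 RPKM in KO and at 92.4 and 89.5 in WT. Krt71, which builds the inner root sheath, was at 0.238 and 0.259 RPKM in KO and at 7.80 and 6.96 in WT. No library of one genotype reached the range of the other for any of them, which also held for 70.1% of all genes tested. Crct1 rose by 1.58 (SE 0.04, adjusted p = 1.45e-07), Krt77 rose by 0.83 (SE 0.02, adjusted p = 2.28e-07), and Krt71 fell by 2.75 (SE 0.07, adjusted p = 1.45e-07).

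**Figure D1:**
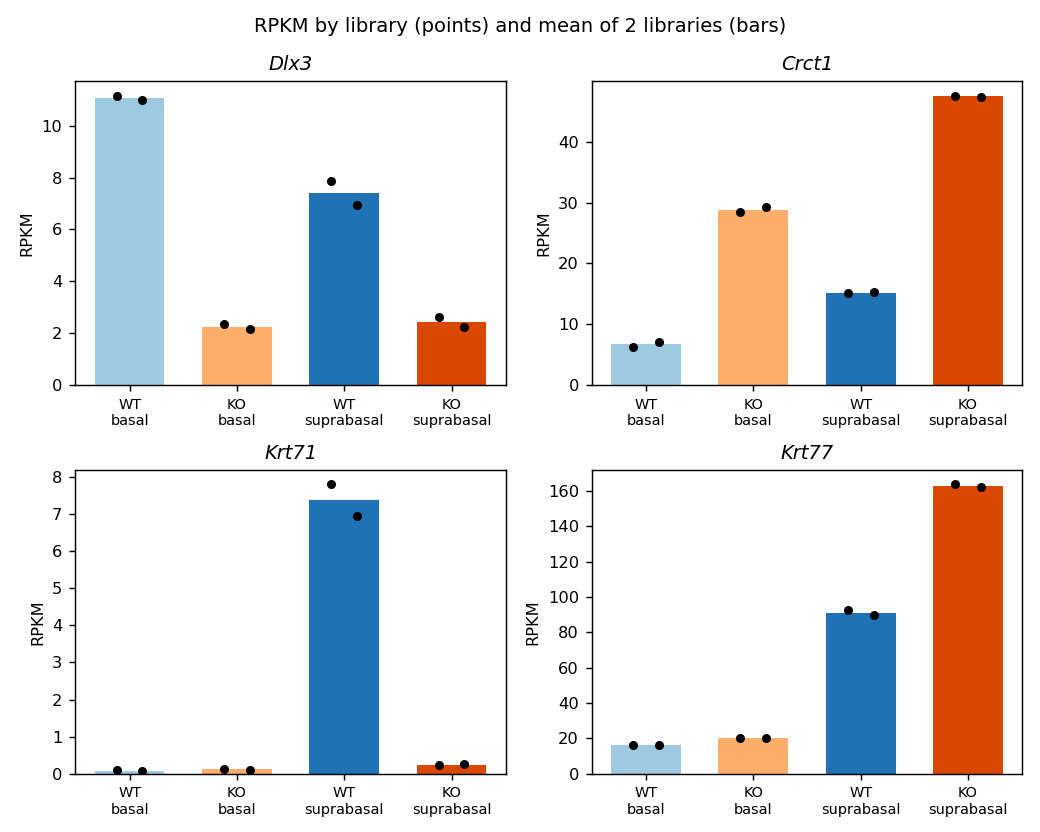
RPKM (y axis, a separate linear scale for each gene) of Dlx3, Crct1, Krt71 and Krt77 in basal and suprabasal cells of WT and KO animals; points are libraries and bars are means of 2. In suprabasal cells the KO libraries lie below the WT libraries for Dlx3 and Krt71 (0.238 and 0.259 against 7.80 and 6.96 RPKM) and above them for Crct1 and Krt77.

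Across the transcriptome the differences were many and mostly small. Of 12146 genes tested, 2620 rose (21.6%) and 1911 fell (15.7%) in KO at an adjusted p under 0.05, 37.3% in all. With quantile normalization the split was 1935 higher and 2346 lower. The median log2 difference of all genes was 0.009. Only 169 genes (1.39%) were called and changed at least 1.5-fold, 139 of them higher (1.14%) and 30 lower (0.247%). With 0.1 added in place of 1 before the log these counts were 240 and 62. Of the 139 genes that rose this far 136 are protein coding, whereas the 30 that fell comprise 18 protein-coding genes, 7 snoRNAs and 5 miRNAs. Values of such short RNAs rest on few reads in a total RNA library and many lie inside the introns of longer genes. Through 1 genotype alone 10 of the 30 and 10 of the 139 had passed the filter on low values, against 122 of all genes tested.

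**Figure D2:**
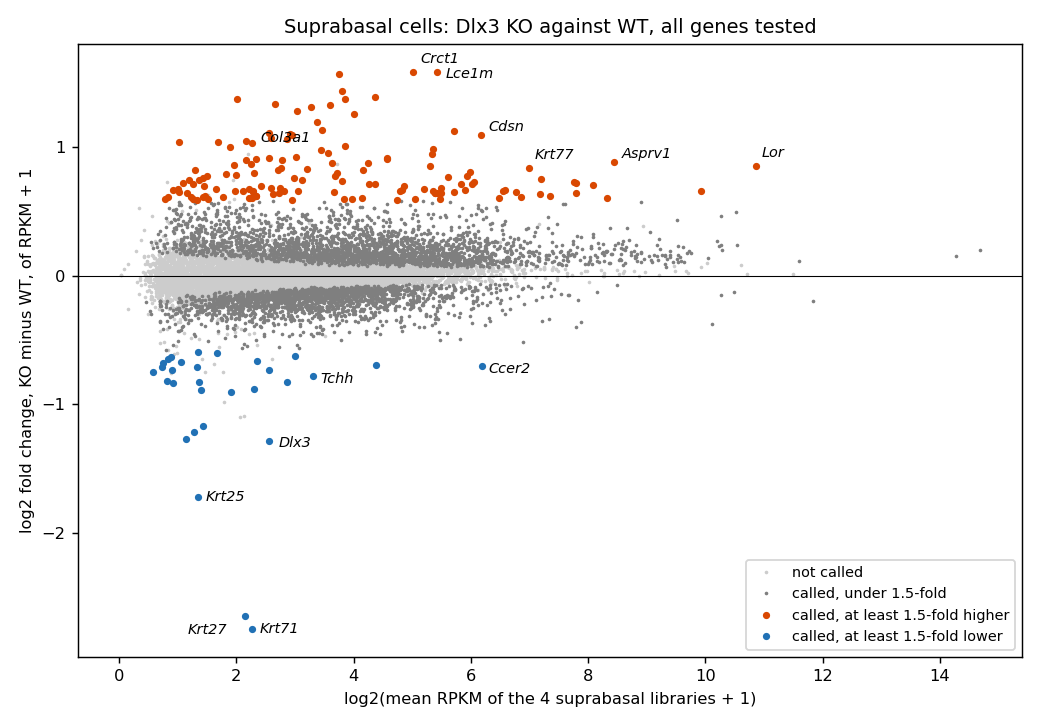
Log2 difference KO minus WT in suprabasal cells (y axis, RPKM plus 1) against the log2 of the mean RPKM plus 1 of the 4 suprabasal libraries (x axis) for the 12146 genes tested; orange and blue points are called and at least 1.5-fold higher or lower. Krt71, Krt27 and Krt25 lie lowest, and Crct1 and Lce1m highest.

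The largest falls were in genes of the inner root sheath. Krt27, a type I keratin that pairs with Krt71 in this sheath, was at 0.224 and 0.240 RPKM in KO and at 6.54 and 6.84 in WT. Krt25, another type I keratin of the sheath, was at 0.181 and 0.197 in KO and at 2.94 and 2.89 in WT. Both fell in KO, Krt27 by 2.64 (SE 0.05, adjusted p = 6.61e-08) and Krt25 by 1.72 (SE 0.06, adjusted p = 8.96e-07). Krt25 and Krt27 lie on chromosome 11, which also carries Dlx3, and Krt71 on chromosome 15. In bulk libraries fewer cells of a type and less RNA per cell cannot be told apart.

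Other sheath genes kept more of their level. Krt73, a type II sheath keratin, was at 3.22 and 2.75 RPKM in KO and at 5.37 and 5.22 in WT and fell by 0.66 (SE 0.06, adjusted p = 0.000133). Tchh, trichohyalin, the matrix protein that hardens the sheath, was at 6.47 and 6.20 in KO and at 11.4 and 11.8 in WT and fell by 0.78 (SE 0.05, adjusted p = 1.2e-05). Krt28 was at 0.394 and 0.336 RPKM in KO and at 1.43 and 1.44 in WT. Krt28 fell by 0.83 (adjusted p = 3.97e-05). Krt25, Krt27, Krt28 and Krt71 passed the filter through WT libraries alone, so that a difference was built into their being tested.

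Below the filter the remaining sheath keratins had their higher values in WT. Krt72 was at 0.0121 RPKM in 1 KO library and at 0 in the other, and at 0.750 and 1.08 in WT. Krt26 was at 0.0282 and 0.0453 in KO and at 0.984 and 0.708 in WT, and Krt74 at 0.0465 and 0.0563 against 0.179 and 0.201. Tchhl1, a relative of trichohyalin, was at 0 in both KO libraries and at 0.359 and 0.334 in WT. Genes of the list that the interfollicular epidermis also uses were nearly level. Tgm3, a transglutaminase of sheath and upper epidermis, was at 64.4 and 64.8 RPKM in KO and at 63.1 and 62.0 in WT (adjusted p = 0.164). Gata3, a transcription factor of sheath and epidermis, was at 38.2 and 40.1 in KO and at 41.0 and 41.9 in WT, and its small fall of 0.08 (adjusted p = 0.0495) was not called in 8 of the 12 alternative settings.

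The promoters of both strongest sheath keratins are shown because these genes fell together and Dlx proteins, as homeodomain factors, are known to bind TAATT cores. The windows are RefSeq sequence of GRCm38.p6, from 250 bases before to 50 bases after the transcript start, read 5′ to 3′ on the minus strand; capitals mark TAATTA or TAATTG on either strand. The first is chr15:101743048-101743347 and the second chr11:99351069-99351368.
Krt71: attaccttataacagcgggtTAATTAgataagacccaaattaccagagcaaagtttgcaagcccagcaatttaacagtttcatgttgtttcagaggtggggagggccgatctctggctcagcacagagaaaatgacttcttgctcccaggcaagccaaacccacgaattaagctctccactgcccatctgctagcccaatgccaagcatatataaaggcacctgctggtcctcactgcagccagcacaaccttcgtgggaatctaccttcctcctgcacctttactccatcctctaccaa
Krt27: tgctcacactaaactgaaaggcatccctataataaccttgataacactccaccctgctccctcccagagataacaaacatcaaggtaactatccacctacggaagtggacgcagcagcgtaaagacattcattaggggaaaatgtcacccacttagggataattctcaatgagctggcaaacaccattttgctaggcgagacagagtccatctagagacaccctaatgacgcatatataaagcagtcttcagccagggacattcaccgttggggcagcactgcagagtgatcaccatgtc
Krt71 has 1 such match, at base 21 of its window, and Krt27 has 0. The shorter TAATT core, on either strand, also occurs in both windows outside the capitals and was not counted. TAATTA or TAATTG is found in 12.4% of all 32851 RefSeq promoters, and in 8.25% of those of the 9467 tested genes with an entry. Of the genes that changed at least 1.5-fold, 13 of those lower have an entry and 7 of these hold a match (53.8%), and 97 of those higher have one and 4 hold a match (4.12%). TATAAA, the TATA box, was in 13.6% of all promoters and in 8.65% of those of the tested genes, in 9 of the 13 and in 24 of the 97 (24.7%). A match is no measure of binding, and 13 promoters are few. The sets also keep genes that passed the filter through 1 genotype alone, 10 of the 30 lower and 10 of the 139 higher. Krt71 and Krt27 are among them, and they were not set apart.

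Shaft keratins of the hair were close to the lower limit of the table. Of 15 listed only Krt32 and Krt35 were tested. Krt35, a keratin of the early hair shaft, was at 1.62 and 1.43 RPKM in KO and at 1.23 and 1.09 in WT and rose by 0.23 (adjusted p = 0.0355), a call that was lost in 4 alternative settings. Krt32 was at 1.23 and 1.64 in KO and at 1.70 and 1.93 in WT (adjusted p = 0.0869).

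Most of the called regulators of the hair follicle were higher in KO. Of 31 tested, 16 rose and 4 fell, with a median log2 difference of 0.105, against 21.6% and 15.7% of all genes; with quantile normalization 12 rose and 5 fell. Lhx2, a homeobox factor of follicle progenitors, was at 26.0 and 25.5 RPKM in KO and at 17.5 and 18.4 in WT and rose by 0.50 (SE 0.03, adjusted p = 1.19e-05). Shh, the hedgehog ligand of the hair germ, was at 12.3 and 12.6 in KO and at 10.2 and 9.63 in WT and rose by 0.30 (adjusted p = 0.000307). Edar, the ectodysplasin receptor, was at 10.6 in both KO libraries and at 9.07 and 8.87 in WT and rose by 0.22 (adjusted p = 0.00048). S100a3, a calcium-binding protein of the hair cuticle, was at 0.856 and 0.967 in KO and at 2.13 and 2.11 in WT and fell by 0.71 (adjusted p = 0.00318). S100a3 passed the filter through WT libraries alone. In basal cells Lhx2 (-0.18), Shh (-0.14) and Edar (-0.17) were lower in KO, and the difference between the fractions was called for each (adjusted p = 5.97e-05, 0.00073 and 0.000444).

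The largest rises were in the epidermal differentiation complex. Between Lor and S100a10 the table lists 51 genes of this region, of which 35 were tested. In KO suprabasal cells 31 of them rose, 2 fell and 20 rose at least 1.5-fold, with a median log2 difference of 0.71. Over all genes tested 21.6% rose, 15.7% fell and 1.14% rose at least 1.5-fold. Both genes that fell, Prr9 and Tchh, also fell at least 1.5-fold. Prr9, a proline-rich protein gene, was at 0.744 and 0.573 RPKM in KO and at 2.36 and 3.14 in WT, and it passed the filter through WT libraries alone.

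**Figure D3:**
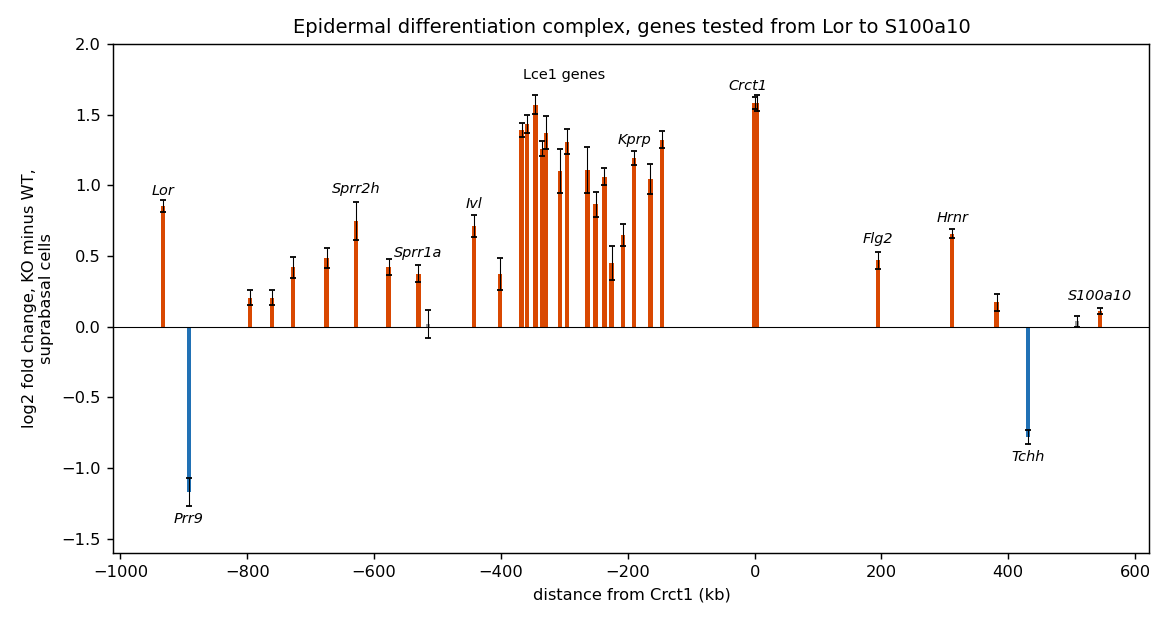
Log2 difference KO minus WT in suprabasal cells (y axis, with SE) for the 35 tested genes from Lor to S100a10, placed by distance from Crct1 in kb (x axis); orange bars are called higher, blue bars called lower and grey bars not called. The Lce1 genes, Kprp and Crct1 form the tallest block, and Prr9 and Tchh are the bars below 0.

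The late cornified envelope (Lce) genes, whose small proteins are added to the envelope late in its assembly, all moved up among those that could be tested. All 15 tested rose in KO, against 21.6% of all genes, and 13 of them rose at least 1.5-fold, against 1.14%. Their median log2 difference was 1.11. Lce1k, included in both counts, passed the filter through KO libraries alone. Lce1m was at 64.1 and 61.9 RPKM in KO and at 19.3 and 21.5 in WT and rose by 1.58 (SE 0.06, adjusted p = 8.96e-07). Lce1a1 was at 28.3 and 29.3 in KO and at 9.81 and 10.9 in WT and rose by 1.39 (SE 0.05, adjusted p = 8.96e-07). Summed over the family the RPKM was 227.4 and 225.1 in KO and 77.5 and 85.6 in WT. Lce1a2 rose by 1.57, Lce1b by 1.44, Lce1d by 1.37, Lce1f by 1.31 and Lce1c by 1.26. The remaining 6 members, all of the Lce3 type, stayed at or below 0.366 RPKM in the suprabasal libraries. Lce1 genes are near-identical in sequence, values as small as 6.07e-32 in the Lce3 group show that reads were shared out between genes, and single members are uncertain for that reason.

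Structural proteins of the envelope rose with them. Lor, loricrin, the main envelope protein of the granular layer, was at 2472 and 2344 RPKM in KO and at 1320 and 1341 in WT and rose by 0.85 (SE 0.04, adjusted p = 3.62e-06). Cdsn, corneodesmosin, which holds corneocytes together, was at 99.2 and 96.3 in KO and at 45.6 and 44.9 in WT and rose by 1.10 (SE 0.05, adjusted p = 2.26e-06). Kprp, a keratinocyte proline-rich protein, was at 12.9 and 14.2 in KO and at 5.47 and 5.23 in WT and rose by 1.19 (SE 0.05, adjusted p = 1.93e-06). KO and WT libraries were apart for all of these, as for 70.1% of all genes tested. Ivl, involucrin, an early envelope scaffold, was at 70.3 and 69.6 in KO and at 41.7 and 42.9 in WT and rose by 0.71 (adjusted p = 0.000295). Hrnr, a filaggrin-like protein, rose by 0.66 (adjusted p = 4.28e-06) and its neighbour Flg2 by 0.47. In all 16 of 20 tested envelope precursors rose and 2 fell, against 21.6% and 15.7% of all genes. At least 1.5-fold were 9 and 2 of them, against 1.14% and 0.247%, and the median was 0.36. With quantile normalization 13 rose and 4 fell.

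The small proline-rich (Sprr) proteins, which bridge other envelope proteins, were also mostly higher in KO. Of 8 tested 7 rose, against 21.6% of all genes, and 1 of them at least 1.5-fold, against 1.14%, with a median of 0.40. Sprr1b was at 16.3 and 16.6 RPKM in KO and at 11.4 and 12.7 in WT and rose by 0.42 (SE 0.06, adjusted p = 0.000859). Sprr1a was at 54.4 and 58.5 in KO and at 42.9 and 43.6 in WT and rose by 0.37 (adjusted p = 0.00198). Sprr2a1 and Sprr2a2 carry identical values in the table, and both are included in these counts and in those of the whole complex.

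Promoter windows of the most changed Lce gene with an entry and of Lor are shown as the counterpart to the sheath keratins, with the same source, length, strand and capitals. They are chr3:93019012-93019311 and chr3:92083093-92083392.
Lce1m: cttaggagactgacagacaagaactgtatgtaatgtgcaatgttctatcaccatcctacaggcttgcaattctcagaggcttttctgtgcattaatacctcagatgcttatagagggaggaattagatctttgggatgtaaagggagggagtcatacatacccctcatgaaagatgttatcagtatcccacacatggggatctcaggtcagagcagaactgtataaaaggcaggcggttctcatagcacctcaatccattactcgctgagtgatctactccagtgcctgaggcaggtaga
Lor: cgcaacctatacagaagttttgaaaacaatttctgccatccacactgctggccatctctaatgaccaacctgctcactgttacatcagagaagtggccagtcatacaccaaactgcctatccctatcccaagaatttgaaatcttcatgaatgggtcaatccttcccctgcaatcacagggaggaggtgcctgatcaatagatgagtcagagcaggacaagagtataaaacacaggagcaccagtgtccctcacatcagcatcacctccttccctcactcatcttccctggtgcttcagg
Neither window holds TAATTA or TAATTG, and 1 of the 13 Lce1 genes with an entry does. The shorter TAATT core does occur in the Lce1m window, on the opposite strand. Lor has 1 match to TGANTCA, the AP-1 element, on either strand, and Lce1m has 0. This motif was in 7.81% of all promoters, in 5.95% of those of the tested genes, in 15 of the 97 entries of genes that rose at least 1.5-fold (15.5%) and in 1 of the 13 entries of genes that fell. Both windows hold 1 TATAAA, as do those of Krt71 and Krt27.

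Keratins of the upper layers rose by unequal amounts. The most abundant pair changed little. Krt1 rose by 0.15 (adjusted p = 0.000928) and Krt10, at 28047 and 27790 RPKM in KO and 24250 and 24420 in WT, by 0.20 (SE 0.02, adjusted p = 0.000308), and under quantile normalization the difference was 0 for both. Krt78, a keratin of the upper spinous and granular layers, was at 135.4 and 128.8 RPKM in KO and at 84.3 and 83.4 in WT and rose by 0.65 (SE 0.05, adjusted p = 4.86e-05). Krt23 was at 21.4 and 22.2 in KO and at 11.9 and 11.8 in WT and rose by 0.82 (SE 0.06, adjusted p = 3.83e-05). Krt79 was level, with a log2 difference of 0.005 (adjusted p = 0.891). In all 6 of 7 tested keratins of this list rose and 0 fell, against 21.6% and 15.7% of all genes. With quantile normalization 3 rose and 1 fell. Krt1 and Krt10 together made up 15.02% and 14.98% of the RPKM sum in the KO libraries and 14.25% in both WT libraries.

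Keratins of the basal layer were lower or level. Krt15, a basal keratin, was at 975.5 and 952.3 RPKM in KO and at 1238 and 1272 in WT and fell by 0.38 (SE 0.03, adjusted p = 2.26e-05). Krt5, the main basal type II keratin, was at 3396 and 3373 in KO and at 3863 and 3916 in WT and fell by 0.20 (adjusted p = 0.000429), with a difference of 0 under quantile normalization. Its partner Krt14 differed by 0.01 and was not called. Keratins of stressed epidermis were higher in KO. Krt6b, at 81.6 and 81.1 RPKM in KO and 55.4 and 57.0 in WT, rose by 0.53 (adjusted p = 6.49e-06), Krt6a by 0.47 and Krt16 by 0.31, while Krt17 was level at 0.02 (adjusted p = 0.637). In this list of 8 tested genes 5 rose and 1 fell, against 21.6% and 15.7% of all genes.

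**Figure D4:**
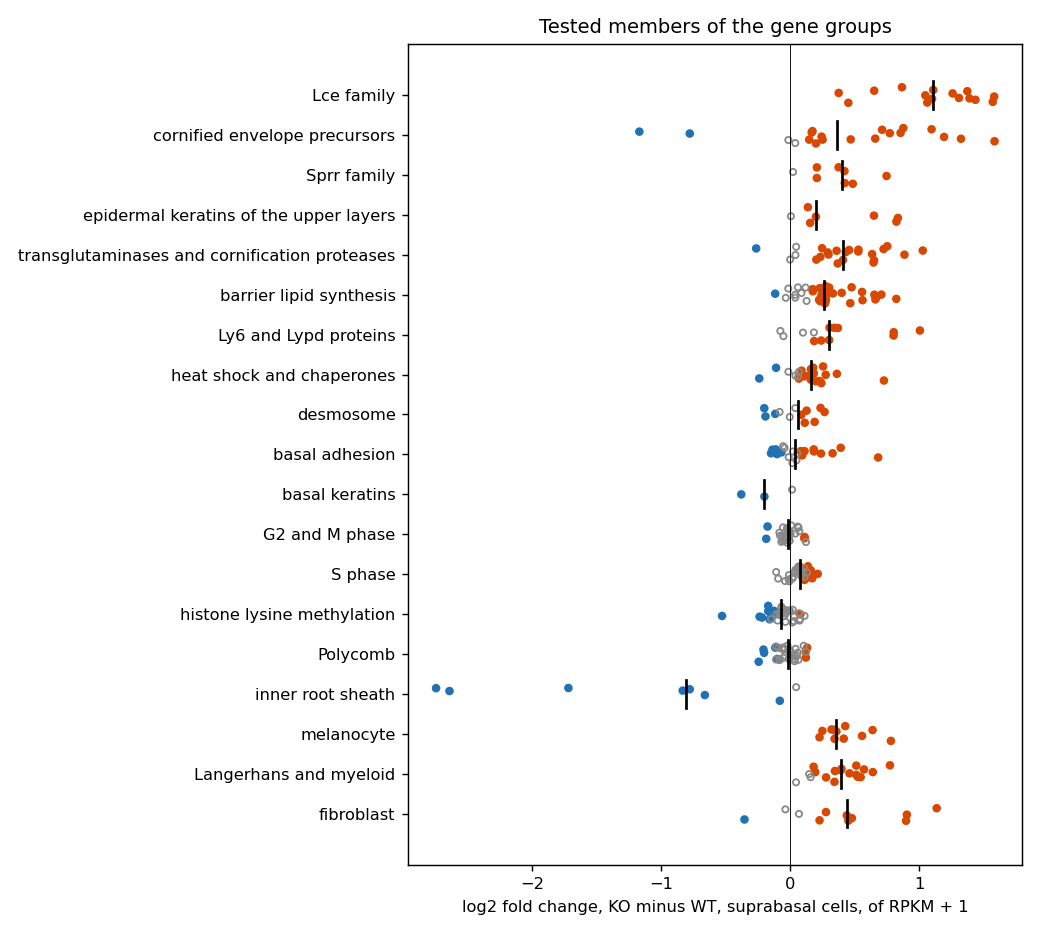
Log2 difference KO minus WT in suprabasal cells (x axis, RPKM plus 1) for the tested members of 19 gene groups (rows); each point is a gene, orange if called higher, blue if called lower and open grey if not called, and the vertical bar is the median of the group. The Lce family (median 1.11) stands farthest to the right and the inner root sheath farthest to the left.

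Enzymes that crosslink and process the envelope were higher in KO. Of 23 transglutaminases and cornification proteases tested 19 rose and 1 fell, against 21.6% and 15.7% of all genes. At least 1.5-fold higher were 7 of them, against 1.14%, and the median was 0.41. Asprv1, the retroviral-like aspartic protease that processes profilaggrin, was at 444.5 and 456.9 RPKM in KO and at 241.9 and 245.2 in WT and rose by 0.89 (SE 0.02, adjusted p = 2.06e-07). Klk7, a kallikrein that cleaves corneodesmosomes, was at 270.7 and 271.4 in KO and at 173.0 and 172.8 in WT and rose by 0.65 (SE 0.03, adjusted p = 4.34e-06). Its activator Klk5 rose by 0.72 and Tgm1, the transglutaminase that fixes the envelope to the membrane, by 0.53. Hal, histidase, which makes urocanic acid, was at 184.7 and 182.1 in KO and at 109.4 and 107.6 in WT and rose by 0.75 (SE 0.03, adjusted p = 1.3e-06). Blmh, bleomycin hydrolase, which breaks down filaggrin peptides, was at 173.8 and 175.3 in KO and at 110.6 and 113.6 in WT and rose by 0.63 (adjusted p = 8.96e-07). The inhibitor Spink5 rose as well, by 0.46.

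Genes of barrier lipid synthesis rose by smaller amounts. Of 38 tested 29 rose and 1 fell, against 21.6% and 15.7% of all genes. Lipk, among the 38, passed the filter through 1 genotype alone. At least 1.5-fold higher were 5 of them, against 1.14%, and the median was 0.26. Elovl1, an elongase of very long chain fatty acids, was at 335.0 and 339.2 RPKM in KO and at 207.4 and 205.1 in WT and rose by 0.71 (SE 0.03, adjusted p = 2.49e-06). Alox12b, the lipoxygenase that starts the processing of acylceramide, was at 73.9 and 70.1 in KO and at 46.3 and 43.7 in WT and rose by 0.67 (adjusted p = 4.1e-05). Smpd3, a neutral sphingomyelinase, was at 7.25 and 7.46 in KO and at 3.71 and 3.75 in WT and rose by 0.82 (SE 0.05, adjusted p = 9.45e-06). Pla2g2f and Dgat2 each rose by 0.56. Cholesterol synthesis moved little, with 12 of 23 genes higher and 1 lower at a median of 0.11; with quantile normalization the counts were 7 and 4.

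Junction genes were mixed. Cldn4, a claudin of tight junctions, was at 119.1 and 114.9 RPKM in KO and at 72.8 and 74.2 in WT and rose by 0.66 (SE 0.04, adjusted p = 9.08e-06), and Cldn23 rose by 0.71 (adjusted p = 3.59e-05). The counts of the junction lists stand against 21.6% higher and 15.7% lower of all genes. In all 9 of 18 tight and adherens junction genes rose and 0 fell, and with quantile normalization 7 rose and 3 fell. Of 7 gap junction genes 5 rose and 1 fell. The desmosome list gave 6 of 12 higher and 3 lower, and this direction depended on the scaling, since with quantile normalization 0 rose and 6 fell. Dsc3, a desmocollin of the lower layers, was at 207.4 and 214.7 RPKM in KO and at 241.7 and 240.9 in WT and fell by 0.19 (adjusted p = 0.000528).

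Genes of Ly6, retinoid-binding, calmodulin-like and heat shock proteins included several large rises. Slurp1, a secreted Ly6 protein of the granular layer, was at 17.2 and 19.2 RPKM in KO and at 9.26 and 7.88 in WT and rose by 1.005 (SE 0.12, adjusted p = 0.000358), a call lost with 0.1 added before the log (adjusted p = 0.0912). Crabp2, a retinoic acid binding protein, was at 30.0 and 30.3 in KO and at 16.3 and 14.9 in WT and rose by 0.91 (SE 0.07, adjusted p = 2.94e-05). Calml3, a calmodulin-like protein, rose by 0.71 (adjusted p = 4.27e-05) and Calm4, a skin calmodulin also known as Scarf, by 0.43. Hspb1, a small heat shock protein of differentiating keratinocytes, was at 274.1 and 261.2 in KO and at 159.9 and 162.8 in WT and rose by 0.73 (SE 0.05, adjusted p = 3.59e-05). The counts of the lists that follow stand against 21.6% higher and 15.7% lower of all genes. Of 13 Ly6 and Lypd genes 9 rose and 0 fell, 8 and 1 with quantile normalization. Of 14 calcium-handling genes 8 rose and 2 fell, and of 21 chaperones 15 rose and 2 fell; with quantile normalization these counts were 5 and 2 and 8 and 4.

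Outside these groups the named rises were Cpa4, Chil1 and Col3a1. Cpa4, a carboxypeptidase, was at 8.37 and 7.77 RPKM in KO and at 2.63 and 2.55 in WT and rose by 1.34 (SE 0.05, adjusted p = 1.3e-06). Chil1, a chitinase-like protein, was at 10.6 in both KO libraries and at 3.68 and 3.87 in WT and rose by 1.28 (SE 0.07, adjusted p = 4.85e-06). The named falls outside the sheath were of several kinds. Krt4, a keratin of internal stratified epithelia, was at 0.206 and 0.400 RPKM in KO and at 1.94 and 2.33 in WT and fell by 1.27 (adjusted p = 2.69e-05); it reached 1 RPKM in the WT suprabasal libraries alone, so that a difference was built into its being tested. Ccer2 was at 54.5 and 54.0 in KO and at 88.2 and 89.7 in WT and fell by 0.70 (SE 0.02, adjusted p = 2.28e-07). Clca3a1, of the family of calcium-activated chloride channel regulators, was at 15.3 and 14.7 in KO and at 24.7 and 24.9 in WT and fell by 0.69 (SE 0.03, adjusted p = 1.93e-06), and Igfbp5, which binds insulin-like growth factors, fell by 0.56 (adjusted p = 7.77e-05). The snoRNAs Snora16a, Snord16a, Snora70 and Snord100 had log2 differences of -0.88, -0.83, -0.73 and -0.62, with SE of 0.13 to 0.20.

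Transcription factors of terminal differentiation changed by less than their structural genes. Of 43 tested 16 rose and 10 fell, against 21.6% and 15.7% of all genes, with a median of 0.03. With quantile normalization 10 rose and 15 fell. Cebpa, a bZIP factor of the suprabasal layers, was at 160.2 and 154.4 RPKM in KO and at 119.6 and 121.5 in WT and rose by 0.38 (SE 0.03, adjusted p = 6.35e-05). Cebpb rose by 0.53 (adjusted p = 0.0001), Grhl3 by 0.32, and Klf4, a factor of barrier formation, by 0.17, which was not called under quantile normalization. Tfap2b, an AP-2 factor, was at 14.5 in both KO libraries and at 18.3 and 18.8 in WT and fell by 0.34 (SE 0.03, adjusted p = 3.8e-05). Tfap2a fell by 0.25, the small Maf factor Mafg by 0.32, and Trp63, the master factor of stratified epithelium, by 0.18. Junb, an AP-1 subunit, was at 38.7 and 38.2 in KO and at 26.6 and 28.2 in WT and rose by 0.47 (adjusted p = 3.59e-05), and in its list of 19 early genes 10 rose and 2 fell.

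Lists of cell cycle, chromatin and basal adhesion genes had medians near 0, and their counts stand against 21.6% higher and 15.7% lower of all genes. Of 30 genes of G2 and M phase 2 rose and 2 fell, with a median of -0.02, and of 30 genes of S phase 10 rose and 0 fell, or 7 and 2 with quantile normalization. Of 22 basal adhesion genes 9 rose and 6 fell, with a median of 0.03, and 1 rose at least 1.5-fold, the basement membrane gene Nid1 (0.68). Among histone lysine methylation genes 1 rose and 11 fell of 36 tested, with a median of -0.07; Satb1, a chromatin organiser, fell by 0.24, and the lowest member was the Y-linked Kdm5d at -0.53. Of 23 SWI/SNF genes 2 rose and 8 fell (1 and 9 with quantile normalization), of 32 Polycomb genes 3 rose and 5 fell (1 and 7), and of 15 DNA methylation genes 1 rose and 6 fell, with the dioxygenase gene Tet2 lowest at -0.29.

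Cytokine and interferon lists gave small counts, to be read against 21.6% higher and 15.7% lower of all genes. Of 9 genes of the interleukin 1 family 4 rose and 1 fell, with Il18 higher by 0.57. Of 18 interferon response genes 7 rose and 1 fell, among them Isg15 (0.51) and Irf7 (0.52). Of 7 genes of the interleukin 17 response 1 rose and 1 fell. Oasl2 in the interferon list and S100a9 in the interleukin 17 list passed the filter through 1 genotype alone.

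Markers of other skin cells also differed between the suprabasal groups. The counts below stand against 21.6% higher and 15.7% lower of all genes. All 11 tested melanocyte genes rose, and the summed RPKM of the list was 115.9 and 116.9 in KO and 78.0 and 78.1 in WT. Dct, a melanin synthesis enzyme, was at 48.9 and 51.6 RPKM in KO and at 32.7 and 31.2 in WT and rose by 0.64 (adjusted p = 6.16e-06). Of 18 Langerhans and myeloid genes 15 rose and 0 fell, and their sum was 373.1 and 371.8 in KO and 267.7 and 266.3 in WT. H2-Aa, an MHC class II chain, was at 49.8 in both KO libraries and at 32.2 and 31.0 in WT and rose by 0.64 (adjusted p = 2.31e-06), and Cd207, langerin, was at 1.84 and 2.04 in KO and at 1.29 and 0.996 in WT. No melanocyte or myeloid marker was at 0 in the suprabasal libraries.

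Most fibroblast genes tested were higher in KO, with a median log2 difference of 0.44. Of 11 tested 8 rose and 1 fell, against 21.6% and 15.7% of all genes, and 3 rose at least 1.5-fold, against 1.14%. The sum was 399.6 and 408.8 in KO and 390.6 and 388.4 in WT. Col3a1, a fibrillar collagen, was at 14.1 in both KO libraries and at 5.95 and 5.77 in WT and rose by 1.14 (SE 0.05, adjusted p = 1.93e-06), and Col1a1, at 4.81 and 4.87 against 2.21 and 2.06, rose by 0.90 (adjusted p = 1.22e-05). Postn, periostin, was at 126.4 and 131.6 in KO and at 165.9 and 164.7 in WT and fell by 0.36. Sums of the red cell genes were 0.911 and 1.21 in KO and 0.961 and 1.26 in WT, with 0 of 6 called, against 37.3% of all genes. Those of T cell genes were 17.8 and 17.1 in KO and 17.6 and 19.2 in WT. The sums were 5.65 and 5.68 against 6.00 and 7.11 for neutrophils and mast cells and 10.3 and 9.91 against 8.39 and 7.70 for endothelium. At 0 in the suprabasal libraries were Ly6g, Retnlg, Fcer1a and Ms4a2 among neutrophil and mast cell markers and Emcn among endothelial ones. Of 6 Merkel, nerve and muscle genes 1 rose and 2 fell, against 21.6% and 15.7% of all genes. Those that fell were Krt20 (-0.32), at 0.603 and 0.711 RPKM in KO and 1.17 and 0.960 in WT, and Sox2 (-0.30). Of 10 sebaceous and adipocyte genes 3 rose and 0 fell, or 1 and 2 with quantile normalization. The part of these other cells in the differences was not tested.

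Y-linked genes differed between the genotypes as well. All 4 tested were lower in KO suprabasal cells, at 0.621 to 0.724 of the WT mean. Kdm5d, 1 of the 4, was also lower in KO basal cells (log2 difference -0.31, limma, adjusted p = 0.0218). Ddx3y was at 5.45 and 5.93 RPKM in KO and at 8.68 and 8.78 in WT (log2 difference -0.54, adjusted p = 0.000121). Xist, made by female cells, was at 48.3 and 49.6 in KO and at 46.8 and 46.5 in WT (adjusted p = 0.283). Ddx3y and Xist were both above 5 RPKM in all 8 KO and WT libraries, so that each held RNA of both sexes. The part of the sex ratio in the differences was not tested.

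The same contrast in basal cells gave fewer calls. There 7.21% of genes were called, of which 514 rose (4.23% of all) and 362 fell (2.98%). A change of at least 1.5-fold was called at 0.922%, with 95 higher (0.782%) and 17 lower (0.14%). Of the 139 genes that rose at least 1.5-fold in suprabasal cells 79 also rose in basal cells (56.8%), 2 fell and 58 were not called. Those higher by 1.5-fold in both fractions numbered 49, which is 35.3% of the suprabasal and 51.6% of the basal set. Of the 30 that fell at least 1.5-fold 3 also fell in basal cells and 27 were not called, and 2, Dlx3 and Krt27, fell that far in both. The size of the KO effect itself differed between fractions at 2737 genes (22.5%), by the interaction term of the limma fit, with the suprabasal effect the higher at 14.4% of genes and the lower at 8.08%.

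**Figure D5:**
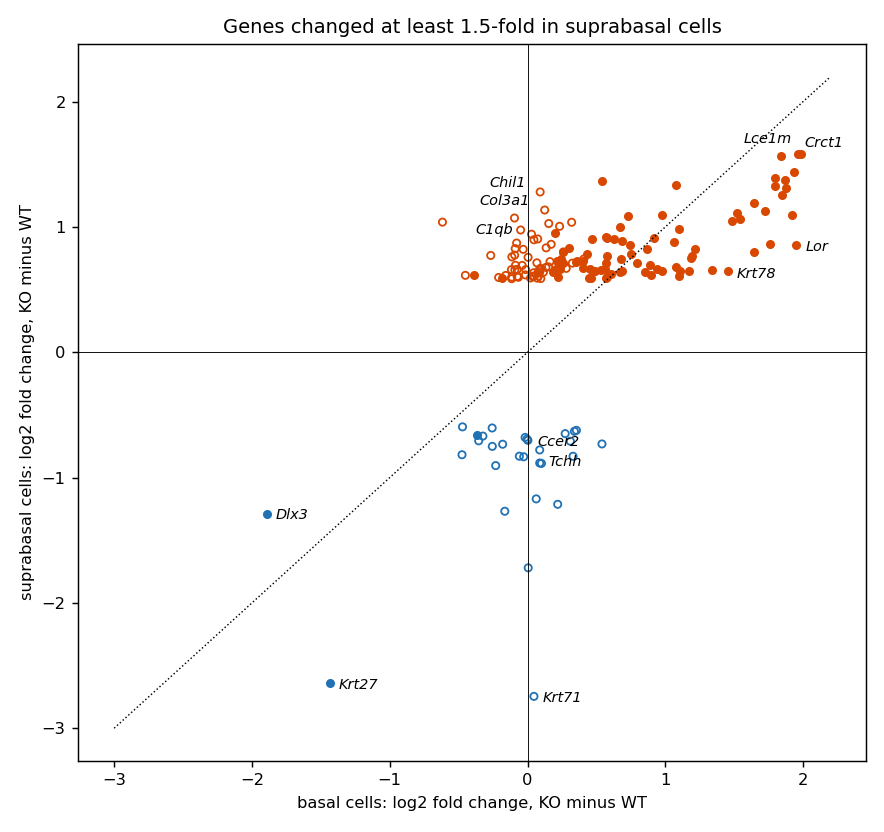
Log2 difference KO minus WT in suprabasal cells (y axis) against that in basal cells (x axis), both of RPKM plus 1, for the 169 genes called and at least 1.5-fold changed in suprabasal cells; filled points are also called in basal cells, orange is higher and blue lower, and the dotted line marks equal effects. Lce1m, Crct1 and Lor lie right of the line, and Chil1, Col3a1 and C1qb lie near 0 on the x axis.

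The 139 were chosen by their suprabasal rise, a value that the interaction term reuses, so a larger suprabasal rise was favoured in advance. Among the 139, the interaction was called at 105 genes, with the larger rise in suprabasal cells for 80 and in basal cells for 25. Crct1, Lor, Lce1m, Lce1b, Lce1a1, Lce1c and Lce1f are of the second kind, whereas the interaction was not called for Lce1a2 (adjusted p = 0.0744), Lce1d (adjusted p = 0.0603), Lce1k (adjusted p = 0.063) and some others of the family. Lor was at 241.1 and 239.6 RPKM in KO basal cells and at 58.5 and 64.5 in WT basal cells, a rise of 1.95 against 0.85 in suprabasal cells (difference -1.10, adjusted p = 3.37e-05). Crct1 was at 28.4 and 29.2 in KO basal cells and at 6.333 and 7.004 in WT basal cells. The Lce family sum reached 264.6 and 271.4 in KO basal cells, above the 227.4 and 225.1 of KO suprabasal cells, whereas WT had 64.3 and 69.5 in basal and 77.5 and 85.6 in suprabasal cells. Krt78 rose by 1.45 in basal and 0.65 in suprabasal cells (difference -0.80, adjusted p = 0.000293).

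For other genes the rise was larger in suprabasal cells. Of those named here Krt77 (0.30), Elovl1 (0.24) and Dct (0.18) also rose in basal cells, by less, while Blmh, Col3a1 and H2-Aa were not called there. Elovl1 was at 25.2 and 26.5 RPKM in KO basal cells and at 21.1 and 22.4 in WT basal cells, and its suprabasal rise was larger by 0.47 (adjusted p = 0.000413). For Blmh the gap was 0.59 (adjusted p = 3.37e-05) and for Krt77 0.54 (adjusted p = 5.97e-05). Col3a1 was at 0.674 and 0.784 in KO basal cells and at 0.578 and 0.592 in WT basal cells (difference 1.01, adjusted p = 8.94e-05), and for Dct the difference was 0.46 (adjusted p = 0.00063) and for H2-Aa 0.56 (adjusted p = 0.000119). Of the melanocyte list 3 of 11 rose in basal cells, and 0 of 18 Langerhans and myeloid genes and 0 of 11 fibroblast genes did, 2 and 4 of which fell there. Over all genes tested 4.23% rose and 2.98% fell in basal cells.

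Among the sheath keratins the fractions differed by gene. Krt71 was near 0 in basal cells of both genotypes, at 0.137 and 0.0981 RPKM in KO and at 0.0874 and 0.0767 in WT. Krt25 was too, between 0.0239 and 0.0362 RPKM. Krt27 was not, at 0.132 and 0.129 in KO and at 2.103 and 2.015 in WT basal cells, where it fell by 1.44 (adjusted p = 4.87e-07). The fall of Dlx3 was larger in basal cells, from 11.16 and 11.01 RPKM in WT to 2.35 and 2.16 in KO, and the difference of 0.60 between fractions was called (adjusted p = 0.00433). The KO level of Dlx3 was thus alike in both fractions, and the WT level was higher in basal cells.

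Fvb/N libraries, from a table normalized apart, show where these genes lie in an unrelated strain. Of the 139 genes that rose, 68 (48.9%) were higher in each of the 4 Fvb/N suprabasal libraries than in any of the 4 basal ones, against 10.1% of all genes tested, and 14 (10.1%) were lower, against 56.4%. Of the 30 that fell 12 (40.0%) were higher and 4 (13.3%) were lower, against the same 10.1% and 56.4% of all genes tested. Krt71 was at 42.8 to 66.6 RPKM in Fvb/N suprabasal libraries (median 53.4) and at 0.307 to 0.522 in basal ones. Krt27 was at 24.4 to 55.0 (median 34.0), Krt25 at 21.4 to 40.1 and Tchh at 15.1 to 53.6 in the suprabasal libraries. Crct1 was at 10.2 to 61.7 in Fvb/N suprabasal libraries and at 0.256 to 1.13 in basal ones, and Lce1m at 1.21 to 31.1 and at 0 to 2.75. Lce1m split by replicate, with suprabasal replicates 1 and 2 at 1.21 and 1.45 and replicates 3 and 4 at 19.6 and 31.1. In basal libraries it was at 0.063 and 0 in replicates 1 and 2 and at 2.75 and 2.335 in 3 and 4. Krt5 was at 1701 in suprabasal replicate 3 and at 164 to 448 in the other suprabasal libraries. Dlx3 itself overlapped between the Fvb/N fractions, at 7.04 to 15.0 in suprabasal and 8.17 to 11.4 in basal libraries. Levels were not compared between the tables.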

How the data were processed

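RNA of 16 libraries was sequenced by the authors, and 8 of them, with 2 replicates in each of 4 groups, carry the KO and WT genotypes. Per the file headers and the submitters' processing notes, reads were demultiplexed with bcl2fastq 2.20.0.422, mapped to mm10 with TopHat2 2.1.1 and quantified in Partek as RPKM, the deposited unit. The kit is named as NEBNext Ultra II RNA, and use of strand in counting is not given in the sources used here, so overlapping antisense genes cannot be told apart. RPKM keeps no counts; depth was estimated from the smallest values of single-transcript genes and lay between 34000000 and 42300000 reads. The authors' deposited statistics were not used.

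Genes with an RPKM of at least 1 in at least 2 of the 8 libraries were tested on log2(RPKM + 1), which understates changes of low genes. limma 3.58.1 in R 4.3.3 was fitted to the 4 group means with an intensity trend, over all 8 libraries, which share 1 estimate of the spread. Tests were two-sided with Benjamini-Hochberg adjustment over 12146 genes, and a gene was called at an adjusted p under 0.05. The difference between fractions was the suprabasal minus the basal contrast. Tables were joined and drawn with Python 3.11.15, pandas 2.3.3 and matplotlib 3.10.9. The fit was also run on simulated data with independent normal noise at the spread of these libraries. Such a run checks the code and cannot show whether that spread is technical.

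Genes named are Dlx3, Crct1, Krt71 and Krt77, the 12 largest rises and 12 largest falls among called genes that did not overlap and reached a mean of 5 RPKM in the higher group, and up to 4 called members with the smallest p of each gene list, with unnamed predicted genes passed over. Others were named after their values were seen, among them Lor, Ivl, Hrnr, Krt4, Prr9, S100a3, Postn, Krt17, Krt32, C1qb and the sex-linked genes. Members and lists were chosen with earlier results of these data known. Of the genes tested 11908 matched RefSeq by symbol and 217 by synonym. Alternatives were another pseudocount, other filters, rescaling, quantile normalization, the 4 suprabasal libraries alone, no trend, a replicate block and leaving out each library.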

Additional observations from a re-analysis of the deposited data

Results flagged for a closer look

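The KO effect was compared between suprabasal and basal cells for 25 genes, and it differed at 21 of them by the interaction term of the limma fit, with adjusted p from 5.6e-06 to 0.047. These are Krt77 and the 12 largest rises and 12 largest falls in suprabasal cells, a choice that itself favours a difference between fractions. Over all genes tested the difference was called at 22.5%. Krt71 and Krt27 passed the filter through WT libraries alone. Among the inner root sheath genes the suprabasal minus basal effect on the log2 scale was -2.79 for Krt71, -1.21 for Krt27, -0.868 for Tchh and -0.295 for Krt73. Krt27 and Krt73 also fell in basal cells, by less, whereas Krt71 and Tchh were not called there. Krt71 was at 0.0767 to 0.137 RPKM in basal cells of both genotypes, which left almost no room for a fall. Its difference between fractions therefore restates the suprabasal fall.

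In the epidermal differentiation complex the effect was smaller in suprabasal cells, by -0.377 for Crct1, -0.405 for Lce1m, -0.5 for Lce1b, -0.406 for Lce1a1, -0.571 for Lce1f, -0.59 for Lce1c and -0.452 for Kprp. All 7 rose in both fractions. The effect was larger in suprabasal cells by 0.537 for Krt77, 0.262 for Cpa4, 1.19 for Chil1 and 1.01 for Col3a1, and Dlx3, which fell in both, differed by 0.605.

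Among the remaining genes that fell in suprabasal cells the difference was -0.705 for Ccer2, -0.689 for Clca3a1, -0.26 for Igfbp5, -0.972 for Snora16a and -0.978 for Snord100. The 2 last are short RNAs with few reads. The cause of these differences was not tested.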

How the results depend on the processing

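Dlx3, Crct1, Krt71 and Krt77 kept their direction and their call under all 12 alternatives. Of the 227 genes followed, 180 kept direction and call under every alternative run. Leaving out 1 suprabasal library at a time left 1178 to 1415 genes lower in KO, and 1786 to 2023 genes whose effect differed between fractions. In that fit the lone library is assumed to vary like the other groups. With 0.1 added before the log, 302 genes passed 1.5-fold, 240 higher and 62 lower. Quantile normalization gave 1935 higher and 2346 lower calls, and rescaling by the median ratio 2920 and 1831. Quantile normalization set Krt1, Krt10, Krt5 and Krt14 to 0, since it gives the most abundant genes equal values by rank, and turned the sign of Perp (-0.057), S100a14 (-0.062), S100a16 (-0.014), Il17rc (-0.011), Ldha (-0.018), Lmna (-0.066), Krt79 (-0.11), Tgm3 (-0.067), Xist (-0.014) and Krt17 (-0.14); beyond the equal ranks the cause was not tested. Krt17, which was not called, ranged from -0.0074 to 0.043 with 1 library left out. Without the filter 4035 genes were called, and with the 4 suprabasal libraries alone 4101. The replicate numbers share no source in the labels, and same-numbered libraries did not deviate together (correlations -0.047 to 0.056); with a replicate block 4451 genes were called and 2654 differed between fractions. With 2 libraries a group, and depth known only by estimate, small changes of genes near 1 RPKM rest on few reads.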
